A study of Mus musculus with 4 samples.

Results

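The methylome and the transcriptome of unmodified mouse embryonic stem cells were set side by side, gene by gene, in 21310 genes. A gene was taken when its symbol had 1 row on chromosomes 1 to 19 in the expression file, which left 21310 of the file's 22492 symbols. Another 230 symbols had several rows and 952 lay on other sequences. Each gene had a genomic interval (its outermost extent in mm9) and an expression value in FPKM (fragments scaled by transcript length and library size). Its methylation was the mean, over CpG dinucleotides, of the percentage of bisulfite reads that stayed unconverted, wherever at least 5 CpGs were listed.

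The study as a whole holds 4 libraries of the ES cell line E14Tg2a, a bisulfite and an RNA library of wild-type (WT) cells and the same pair for a line without Tet enzymes. Only the 2 WT libraries are described, with no comparison to the other line. The WT cells carried no modification per the labels and were grown on gelatin in 15% serum with LIF (1000 units/ml), and had spent 17 days or more in that medium. Each assay had 1 WT library, so no value has a replicate check and no test between classes of genes was made. Genes are not replicates, and every spread below is a spread over genes.

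DNA methylation in mammals sits mainly on CpGs and covers most of the genome, while CpG-rich promoters (CpG islands) are usually kept free of it. Promoter methylation is associated with silence, and methylation inside transcribed genes is common and is laid down in part by DNMT3B, which is drawn to a histone mark of transcribed chromatin. Many developmental genes are silent in ES cells with unmethylated promoters, under Polycomb proteins. Bisulfite sequencing reads 5-methylcytosine and its oxidised form 5-hydroxymethylcytosine alike.

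The main patterns can be seen in 7 promoters, chosen after their values were seen to show the combinations of start methylation and expression. They are RefSeq windows (GRCm38.p6 promoter table, 250 bases before to 50 after the start), written 5′ to 3′ on the gene's strand with CpGs in capitals. Their mm9 places come from matching the spacing of these CpGs to the listed CpG positions. Trim28 (chr7:13609251-13609550, plus strand) is a co-repressor gene and Pou5f1 (chr17:35642727-35643026, plus strand) encodes the pluripotency factor OCT4, both highly expressed. Olig2 (chr16:91225545-91225844, plus strand) is a neural regulator and was nearly silent. Fgb (chr3:82853736-82854035, minus strand) encodes a liver fibrinogen chain and was listed at 0. Tex101 (chr7:25457020-25457319, minus strand) and Mael (chr1:168168826-168169125, minus strand) are germline genes with CpG-rich starts. Dnmt3l (chr10:77504782-77505081, plus strand) encodes a cofactor of de novo methylation.
Trim28: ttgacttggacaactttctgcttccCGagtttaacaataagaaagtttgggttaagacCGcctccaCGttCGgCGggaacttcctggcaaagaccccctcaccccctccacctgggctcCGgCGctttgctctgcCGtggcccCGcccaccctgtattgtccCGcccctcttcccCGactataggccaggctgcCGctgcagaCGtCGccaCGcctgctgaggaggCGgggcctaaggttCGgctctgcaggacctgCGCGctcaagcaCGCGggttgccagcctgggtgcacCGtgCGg
Pou5f1: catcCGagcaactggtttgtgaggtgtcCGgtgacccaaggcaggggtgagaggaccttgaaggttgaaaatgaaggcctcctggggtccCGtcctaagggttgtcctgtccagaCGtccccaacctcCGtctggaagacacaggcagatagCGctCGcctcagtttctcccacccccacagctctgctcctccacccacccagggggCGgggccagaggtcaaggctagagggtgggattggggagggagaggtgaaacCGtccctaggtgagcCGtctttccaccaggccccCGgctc
Olig2: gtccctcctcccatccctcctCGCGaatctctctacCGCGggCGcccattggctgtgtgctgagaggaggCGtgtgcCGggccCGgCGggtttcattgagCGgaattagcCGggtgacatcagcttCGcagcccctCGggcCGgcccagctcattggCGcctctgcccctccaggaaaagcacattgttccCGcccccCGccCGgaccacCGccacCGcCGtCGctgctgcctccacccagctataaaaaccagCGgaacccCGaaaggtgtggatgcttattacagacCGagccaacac
Fgb: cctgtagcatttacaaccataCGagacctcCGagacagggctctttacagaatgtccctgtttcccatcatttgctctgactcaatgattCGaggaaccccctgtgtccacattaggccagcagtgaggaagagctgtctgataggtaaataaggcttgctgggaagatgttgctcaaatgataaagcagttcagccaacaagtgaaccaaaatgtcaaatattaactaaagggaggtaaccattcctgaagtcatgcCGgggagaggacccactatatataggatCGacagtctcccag
Tex101: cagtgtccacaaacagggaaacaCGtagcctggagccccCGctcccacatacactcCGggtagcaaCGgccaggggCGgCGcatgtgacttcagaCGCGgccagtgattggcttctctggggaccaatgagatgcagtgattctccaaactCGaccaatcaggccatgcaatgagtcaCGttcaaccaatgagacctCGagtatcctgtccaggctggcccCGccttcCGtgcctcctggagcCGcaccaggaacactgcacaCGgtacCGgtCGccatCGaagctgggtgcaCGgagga
Mael: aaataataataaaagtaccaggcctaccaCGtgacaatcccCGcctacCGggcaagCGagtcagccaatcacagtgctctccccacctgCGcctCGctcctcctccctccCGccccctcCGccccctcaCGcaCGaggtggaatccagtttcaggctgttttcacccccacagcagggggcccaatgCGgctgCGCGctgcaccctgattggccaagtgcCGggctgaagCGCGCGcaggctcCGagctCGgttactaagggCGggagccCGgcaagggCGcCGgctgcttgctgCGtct
Dnmt3l: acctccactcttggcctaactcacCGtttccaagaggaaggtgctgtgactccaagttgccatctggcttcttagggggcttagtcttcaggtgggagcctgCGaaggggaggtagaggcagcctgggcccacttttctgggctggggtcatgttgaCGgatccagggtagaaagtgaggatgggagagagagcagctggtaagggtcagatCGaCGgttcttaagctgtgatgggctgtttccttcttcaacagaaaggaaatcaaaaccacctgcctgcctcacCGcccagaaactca

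Of the reads over the listed CpGs of these windows, 0.807% were methylated in Trim28 (124 reads, 16 of 23 CpGs listed, exact 95% interval 0.0204% to 4.41%) and 0.909% in Pou5f1 (110 reads, 11 of 11 CpGs, 0.0230% to 4.96%). Olig2 had 0.694% (144 reads, 21 of 25 CpGs, 0.0176% to 3.81%). The silent Olig2 window and the expressed Trim28 and Pou5f1 windows could thus not be told apart by their methylation at this depth, although their FPKM were 0.01, 1013 and 1178. Fgb had 82.9% (35 reads, 5 of 5 CpGs, 66.4% to 93.4%) and Tex101 76.6% (77 reads, 11 of 19 CpGs, 65.6% to 85.5%) at 0 and 0.6 FPKM. Mael, with 9.96 FPKM, had 49.0% (51 reads, 8 of 24 CpGs, 34.8% to 63.4%). Dnmt3l had 58.5% (53 reads, 6 of 6 CpGs, 44.1% to 71.9%) at 291 FPKM. These intervals cover counting error only and are too narrow, since a read spanning several CpGs enters once for each.

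**Figure D1:**
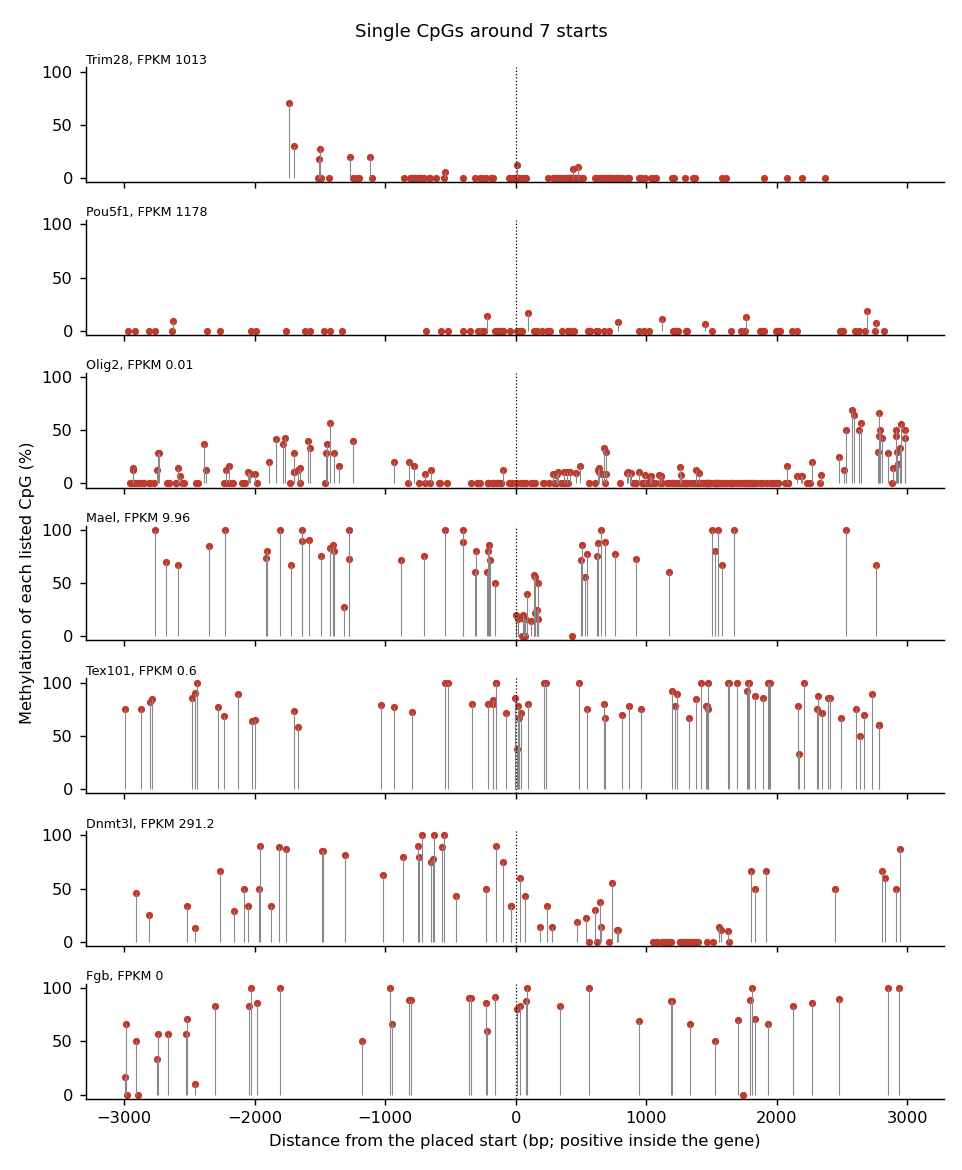
Methylation of every listed CpG (y axis, %) within 3000 bp of the placed start (x axis, distance in bp, positive inside the gene) for the 7 genes whose promoters are printed, each point 1 CpG in the WT bisulfite library. Trim28, Pou5f1 and Olig2 are near 0 around the start, Tex101 has no CpG at 0%, Fgb is high at its start with single low CpGs further out, Mael has most of its low CpGs in the 200 bp after its start, and Dnmt3l has 26 CpGs at 0% between 1000 and 1500 bp inside.

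Single CpGs around these starts showed how wide each state was. From 1000 bp before to 1500 bp after its start, Trim28 had a mean of 0.298% over 122 CpGs, 118 of them at 0%. Olig2 had a mean of 2.35% over 191 CpGs from 1000 bp before to 2000 bp after the start. Tex101 had 81.4% over the 77 CpGs within 3000 bp, with none at 0%. In Mael the 16 CpGs of the 200 bp after the start had a mean of 24.2%, against 75.1% over 9 CpGs in the 500 bp before and 79.2% over 10 CpGs from 500 to 1000 bp inside. Dnmt3l was 88.0% over 9 CpGs from 1000 to 500 bp before its annotated start, 30.5% over the 6 CpGs of the 500 bp after it, and 0% at all 26 CpGs (189 reads) from 1000 to 1500 bp inside. The expressed Dnmt3l gene therefore had its unmethylated stretch inside the interval and not at the annotated start.

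The WT bisulfite file listed 14161393 autosomal CpGs with a median coverage of 8 reads and a minimum of 5, and their mean methylation was 69.4%. Mean coverage over intervals rose from 8.88 reads per CpG in genes listed at 0 FPKM to 12.8 in genes over 100 FPKM. The bearing of this depth difference on the levels was not tested. With CpGs of at least 10 reads only, the difference in median interval methylation between genes from 10 to 100 and genes at 0 FPKM was -21.64 points, against -23.53 with all CpGs. All 8 ES cell markers were at 49.3 FPKM or more, with the highest at 3211. Of 15 fibroblast or feeder markers, 4 reached 1 FPKM (summed FPKM 14.2 over the list, highest Tagln with 8.59), and 3 were at 0. Neural markers reached 1 FPKM in 3 of 7 (highest Tubb3, 61.1) and primitive endoderm markers in 2 of 9 (highest Lama1, 10.5). The part of such cells in the values below was not tested.

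Genes were put in 5 expression classes. Listed at 0 FPKM were 4444 genes, above 0 and under 1 were 6774, from 1 to under 10 were 5076, from 10 to 100 were 4175 and over 100 were 841. FPKM of at least 1 was recorded for 47.4% of the members. Both the whole interval and its ends were lower in methylation in each higher class. The median interval methylation was 78.2% in genes at 0 (quartiles 71.3% and 82.2%, n = 3796), 69.3% in the class up to 1 (53.0% and 76.8%, n = 6720) and 61.0% from 1 to 10 (46.4% and 69.9%, n = 5065). It was 54.6% from 10 to 100 (39.4% and 64.7%, n = 4164) and 34.8% over 100 (11.1% and 50.7%, n = 839). The quartile ranges of neighbouring classes overlapped, while those of genes at 0 and of genes from 10 to 100 did not.

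Most of that difference lay at the ends. An end window ran from 500 bp within the interval to 1000 bp beyond it. In intervals shorter than 1000 bp the windows of the 2 ends overlap and share CpGs. The lower quartile of interval length at 0 FPKM was 972 bp. The file gives no strand, so the lower and the higher end of a gene were used. The lower end had medians of 72.6%, 16.2%, 3.28%, 1.77% and 1.01% over the 5 classes in rising order of FPKM. The higher end had 83.1%, 78.6%, 76.7%, 76.1% and 67.0%. Lower and higher ends differ by construction, so the information is in how each moved between classes: the median lower end fell by 70.85 percentage points between genes at 0 and genes from 10 to 100, and the median higher end fell by 7.03.

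The interior (the interval without its outer 2000 bp on each side) differed less between classes than the lower end. Its medians were 78.4%, 75.9%, 74.9%, 73.7% and 65.2% (n = 2154, 5526, 4528, 3662 and 586). The quartiles of the interior were 72.8% and 81.9% at 0 FPKM and 65.8% and 78.8% from 10 to 100, so these classes overlapped widely. Over 100 FPKM they were 51.9% and 74.2%, the lowest of the 5 classes. An interior of at least 60% was found in 85% of all members measured, in 92.3% at 0 FPKM, 83.7% from 10 to 100 and 63.1% over 100. The 5000 bp trim on each side narrowed the difference between genes from 10 to 100 and genes at 0 from 4.69 to 3.07 percentage points, and a 1000 bp trim widened it to 7.49. With the 1000 bp trim the median over 100 FPKM was 57.3%.

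Interval length moved with the classes and with these values. The median length was 4880 bp at 0 FPKM, 17952 bp up to 1, 23608 bp from 1 to 10, 19471 bp from 10 to 100 and 9148 bp over 100. Within intervals of 10 to 100 kb the interval medians were 77.6%, 69.3%, 62.4%, 59.1% and 50.0%, a smaller spread than over all lengths. Among intervals over 100 kb the interior medians were 78.6% at 0 FPKM, 78.7% up to 1, 77.0% from 1 to 10 and 76.2% from 10 to 100 (n = 228, 1035, 676 and 229). The 7 genes over 100 FPKM in that length class had 69.1%. In genes under 10 kb, where a promoter takes up much of the interval, the interval medians ran from 78.9% at 0 to 12.3% over 100 FPKM.

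Across all 20584 genes with a measured interval, Spearman's rho between interval methylation and FPKM was -0.52, as a description over genes that share 1 library of each assay. It was -0.64 for the lower end (n = 18019), -0.24 for the higher end and -0.20 for the interior (n = 16456). Among the 9446 genes with at least 1 FPKM and both ends measured, rho for the lower end was -0.23. The lower end thus separated silent from expressed genes much more than it ranked the expressed ones.

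The direction held along the genome. The median lower end per chromosome lay between 68.0% (chromosome 5) and 75.7% (chromosome 10) for genes at 0 FPKM and between 1.19% (chromosome 19) and 2.59% (chromosome 18) for genes from 10 to 100. The ranges of these classes did not overlap on the 19 autosomes. For genes over 100 FPKM the interval median ranged from 0.579% on chromosome 13 to 47.1% on chromosome 12. Chromosome 13 holds the large histone cluster, described with the histone genes.

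**Figure D2:**
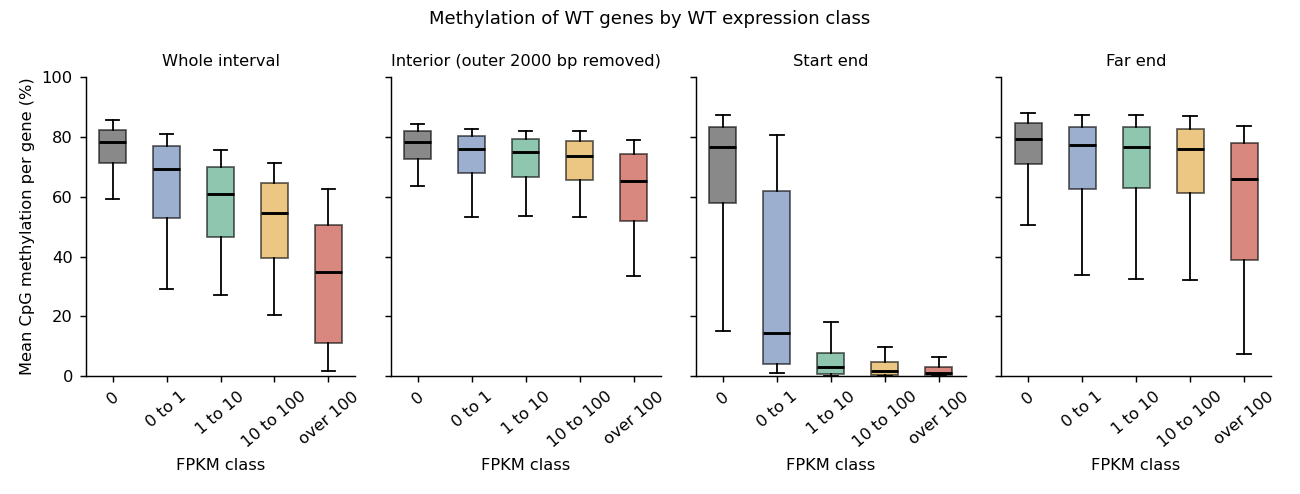
Mean CpG methylation per gene (y axis, %) of the whole interval, the interior, the start end and the far end by WT FPKM class (x axis), as boxes with the median and quartiles and whiskers to the 10th and 90th percentiles over genes. The start end falls from a median of 76.6% at 0 FPKM to 1.03% over 100, while the medians of the interior and the far end stay above 65% in every class.

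A start was placed in 12786 of the members, by finding which end carries the CpG spacing of the gene's RefSeq promoter (a promoter sequence was found for 16610, and 131 matched both ends). The strand found this way was that of the promoter table in 99.8% of them. The share placed was 35.9%, 55.9%, 71.0%, 75.7% and 76.1% over the classes, so silent genes with few CpGs are under-represented. The start end had medians of 76.6%, 14.4%, 3.03%, 1.67% and 1.03%, close to those of the lower end. The far end, where transcripts finish, had 79.3%, 77.1%, 76.5%, 76.0% and 66.0%. The 90th percentile of the start end was 9.82% from 10 to 100 FPKM, and the 10th percentile at 0 FPKM was 15.0%.

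At least 1 end under 20% was found in 67.6% of the 18019 members with both ends measured. By class this was 11.3% at 0 FPKM (303 of 2689, Wilson 95% interval 10.1% to 12.5%), 53.9% up to 1, 88.1% from 1 to 10, 96.1% from 10 to 100 and 97.8% over 100. Both ends under 20% were found in 5.22% of all and in 17.1% of genes over 100 FPKM (137 of 803). Both ends of at least 60% were found in 20.4% of all, in 72.0% of genes at 0 FPKM and in 1.57% of genes from 10 to 100.

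Read the other way, the state of the start separated expressed from silent genes only in part. The start was under 20% in 73% of the placed genes (9256) and at least 60% in 17.7% (2242). Genes with a low start had a median of 6.07 FPKM and 75.2% of them were at 1 FPKM or more. Genes with an intermediate start (1177) had a median of 0.15 FPKM and 24.0% at 1 or more. Genes with a high start had a median of 0 FPKM and 6.60% at 1 or more (148 genes). A low start was thus found with silence in 2292 genes under 1 FPKM, and a high start with expression in 148 genes. The latter share differed with promoter CpG content (observed over expected CpG, described below). At a ratio of at least 0.6, 26.8% of genes with a high start were at 1 FPKM or more (22 of 82). Under 0.3 it was 5.61% (81 of 1444). Among genes with a low start the shares were 78.2% (5970 of 7632) and 52.3% (91 of 174). CpG-rich promoters thus had more expressed genes in both start states.

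Around the start, in intervals of at least 10 kb, the region of low methylation was both deeper and wider in higher classes. In the 250 bp after the start the mean was 59.1% at 0 FPKM, 22.3% up to 1, 3.65% from 1 to 10, 1.77% from 10 to 100 and 0.660% over 100. At 1000 to 1250 bp inside it was 71.4%, 53.4%, 32.2%, 19.7% and 7.65%. At 2000 to 2250 bp inside it was 75.5%, 69.8%, 63.2%, 56.5% and 36.9%. On the outer side the classes lay closer: at 1000 to 750 bp before the start the means from 1 FPKM up were 37.3%, 32.1% and 26.7%. The widening was larger on the transcribed side than on the outer side.

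**Figure D3:**
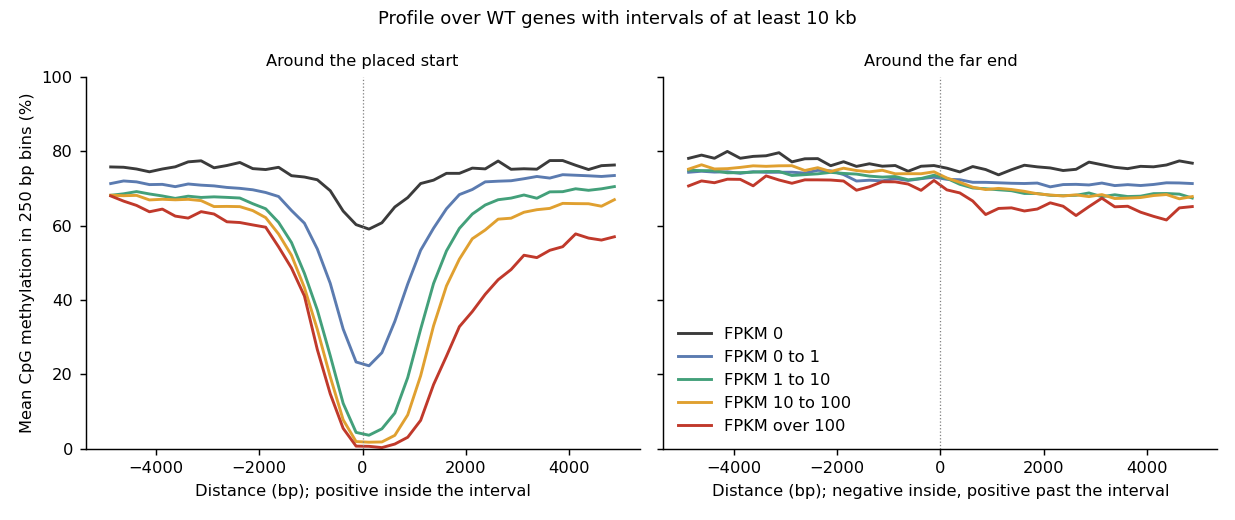
Mean methylation (y axis, %) in 250 bp bins around the placed start (left) and the far end (right) of intervals of at least 10 kb, one line per FPKM class, with distance in bp on the x axis. In the 250 bp after the start the lines are at 59.1% for genes at 0 FPKM and 0.660% for genes over 100, and at the far end all 5 lines stay above 60%.

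At the far end the methylation inside the gene was set against that past it, in intervals of at least 10 kb. In each gene the mean of the last 5000 bp inside was set against that of the stretch from 1000 to 6000 bp past the far end. The median difference, inside minus outside, was 1.30 points at 0 FPKM (n = 661), 1.11 up to 1, 2.79 from 1 to 10, 3.49 from 10 to 100 (n = 2241) and 4.54 over 100 (n = 299). Where no other gene's interval reached into the stretch, the medians were 0.858, 0.125, 1.00, 1.70 and 3.12 points. The differences were thus smaller in every class where the stretch held no other gene. In such genes up to 1 FPKM the inside was higher in 50.6% (Wilson 95% interval 48.1% to 53.0%). At 0 FPKM the interval was 50.3% to 58.8%. Both intervals count genes as independent and are no test of a step. Quartiles were wide, -4.14 and 8.57 points in such genes from 10 to 100 FPKM. From 10 to 100 FPKM the inside was higher in 64.1% of all and in 58.4% of the isolated genes, against 56.6% and 54.6% at 0 FPKM.

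The CpG content of the promoter, a property of the sequence that the classes did not use, moved with both readouts. Observed over expected CpG in the 300-base window had medians of 0.27 at 0 FPKM, 0.55 up to 1, 0.78 from 1 to 10, 0.84 from 10 to 100 and 0.86 over 100. Spearman's rho over 12675 genes was -0.70 between this ratio and the start end. In promoters with a ratio of at least 0.6 the start was low in 66.9% of genes at 0 FPKM (117 of 175), in 90.2% up to 1 and in 99.0% from 10 to 100. In promoters under 0.3 it was low in 1.19% at 0 FPKM (10 of 837), in 8.00% up to 1 and in 49.3% from 10 to 100 (34 of 69, Wilson 95% interval 37.8% to 60.8%). Within CpG-poor promoters the median start was 79.3% at 0 FPKM, 41.4% from 1 to 10 and 20.5% from 10 to 100. Within CpG-rich ones it was 10.3%, 2.10% and 1.34%.

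**Figure D4:**
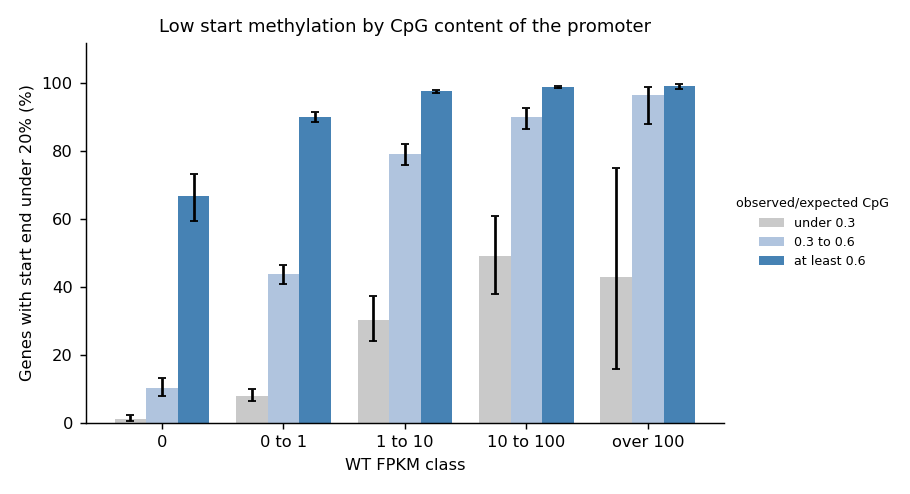
Share of genes with a start end under 20% (y axis, %) by FPKM class (x axis) and by observed over expected CpG of the promoter (bar colour), with Wilson 95% intervals that count genes as independent. In CpG-rich promoters the share is 66.9% even at 0 FPKM, and in CpG-poor promoters it rises from 1.19% at 0 FPKM to 49.3% from 10 to 100.

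Gene groups are described next by counts and medians, beside all members. Over all members 47.4% were at 1 FPKM or more. A low end was found in 67.6% and both ends low in 5.22%. Of placed starts 73% were low and 17.7% were at least 60%. Of 23 pluripotency genes all were at 1 FPKM or more, and 21 of 23 had a low end, against 67.6% of all members. Pou5f1 (chr17:35642977-35647722) had an interval of 1.79% over 80 CpGs at 1178 FPKM. Sox2 (chr3:34548927-34551382), another core factor, had 0.188% over 117 CpGs at 192 FPKM. Nanog (chr6:122657586-122663796) had 27.3% over 75 CpGs, with ends of 6.50% and 48.6%, at 116 FPKM. Dppa5a, an RNA-binding protein gene, was 0% over 12 CpGs at 3211 FPKM. Their median interval was 16.4% and their interior 32.4%, against 65.0% and 75.3% over all members, so many of these genes were low along their length.

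The pluripotency genes without a low end were Dppa3 and Esrrb. Esrrb (chr12:87702067-87862578), a nuclear receptor gene at 49.3 FPKM, had ends of 74.2% and 70.7%. In its interval 39 of 147 tiles of 1 kb were under 20%. Dppa3 (chr6:122576442-122580289), which encodes a maternal factor that protects methylation in the zygote, had ends of 64.4% and 77.4% at 46.4 FPKM, and 1 of its 3 tiles was low.

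Most housekeeping and ribosomal genes had a low end, and part of them had both ends low. All 18 housekeeping genes were at 1 FPKM or more and 16 of 17 had a low end. Both ends were low in 3 of 17, against 5.22% of all members and 17.1% of genes over 100 FPKM. Their median higher end was 54.4%. Actb, the cytoskeletal actin gene, had an interval of 2.05% over 131 CpGs, with ends of 40.6% and 2.31%, at 1242 FPKM. Eef1a1, a translation elongation factor, had a start of 0.420% at 7951 FPKM. Of 80 ribosomal protein genes 78 were at 1 FPKM or more and 76 of 78 had a low end. Both ends were low in 32 of 78, against 5.22% of all members, and the median interval was 4.56%. Respiratory chain genes, with a median of 149 FPKM, had a low end in 73 of 78, against 67.6% of all members. Their median higher end was 74.4%, against 78.2% over all members. Cox8b, a subunit made in muscle and brown fat, was listed at 0 with ends of 81.7% and 66.1%. Near-identical pseudogene copies can take or give reads in the ribosomal and respiratory lists.

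Histone cluster genes were low throughout: 47 of 56 had both ends under 20%, against 5.22% of all members. Their median interval was 0.227% and their median expression 163 FPKM. Hist2h2bb was at 4915 FPKM with 0% over 31 CpGs. Hist1h2ad was listed at 0 FPKM with 0% over 21 CpGs. These intervals are 493 and 393 bp long, so their end windows overlap and both ends low is not 2 separate measurements. The comparison with all members, which are mostly longer, is limited by this. Histone genes of 1 type are near-identical, so reads can be split between copies and their single FPKM are uncertain.

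Developmental regulators were silent with unmethylated starts. Of 50, 1 reached 1 FPKM (Pax6, an eye and brain regulator, 2.63), against 47.4% of all members. A low end was found in 47 of 49, against 67.6% of all members. Their median interval was 11.8%. Of their placed starts 29 of 30 were low, against 73% of all placed starts, with a median of 1.89%. Their promoters had a median ratio of 0.76. At a ratio of at least 0.6 the start was low in 96.0% of all members and in 90.2% up to 1 FPKM. T, which drives mesoderm formation, had a start of 0.833% over 70 CpGs and a far end of 86.1% at 0.57 FPKM. Gata4, an endoderm and heart regulator, had ends of 1.43% and 76.8% at 0.45 FPKM. Sox17, an endoderm factor, had an interval of 6.33% over 182 CpGs at 0.3 FPKM. Barhl2, a neural homeobox gene, was listed at 0 with a start of 0% over 64 CpGs. The exceptions were Pax8 (lower end 38.3%, 0.63 FPKM) and Pax5 (24.8%, 0 FPKM).

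None of 39 Hox genes reached 1 FPKM, and 34 of 38 had a low end, against 47.4% and 67.6% of all members. Their median interval was 9.67%, with 11 of them listed at 0. Among their 22 placed starts 16 were low, a share close to the 73% of all placed starts. The median Hox start was 10.01%, against 4.93% over all placed starts. The larger share with a low end was thus not seen at the placed starts. Hoxd13 had a start of 1.56% at 0.36 FPKM and Hoxc11 had ends of 4.48% and 1.70% at 0. Hoxa9 was less unmethylated, with a start of 23.5% over 25 CpGs. The members without a low end were Hoxa9, Hoxb3 (lower end 54.1%), Hoxd4 (48.1%) and Hoxd12 (40.2%). Hox genes lie in 4 clusters, so neighbours share CpGs and are not separate observations.

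Genes of single adult tissues were mostly silent, and many had methylated ends. Of 34, 2 reached 1 FPKM and 18 were listed at 0. Both ends of at least 60% were found in 15 of 27, against 20.4% of all members and 72.0% of genes at 0 FPKM. A low end was found in 5 of 27, against 67.6% of all members. These were Ucp1 (8.86%), Cd79a (10.8%), Pomc (11.4%), Sftpc (14.4%) and Ckm (17.7%). Of 15 placed starts 11 were at least 60%, against 17.7% of all placed starts. Alb, the serum albumin gene, had an interval of 83.2% and ends of 74.3% and 76.5%. Ins2, an insulin gene, had 85.3% over 10 CpGs. Nphs1, a kidney podocyte gene, had the highest expression of the list (9.84 FPKM) and a start of 23.2%. The promoter ratio of the list was 0.31 at the median, against 0.76 for developmental regulators, a description of these lists with no test.

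Receptor and keratin-associated families were silent and methylated at their ends. Of 1087 olfactory receptor genes 1039 were listed at 0, and 3 of 500 had a low end, against 67.6% of all members. Their median interval was 81.0%. None of 68 vomeronasal receptors (median interval 73.3%) and none of 36 keratin-associated genes (80.6%) had a low end. Olfactory and vomeronasal receptors made up 29.5% of all genes at 0 FPKM. Without them the median interval difference between genes from 10 to 100 and genes at 0 FPKM was -23.24 points, against -23.53 with them.

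Germline genes stood between the others. Of 28, 18 were at 1 FPKM or more, against 47.4% of all members. Yet only 5 of 24 had a low end, against 67.6% of all members. The median of 21 placed starts was 44.9%. Rpl10l, a testis-expressed ribosomal protein copy, had a start of 44.4% at 65.9 FPKM, though near-identical copies can take or give reads. Sycp3, of the synaptonemal complex, had 39.3% over 30 CpGs at 25.6 FPKM. Hormad1, a meiotic chromosome protein, had 30.6% at 18.7 FPKM, and Syce1, another synaptonemal complex gene, 26.2% at 15.4 FPKM. Mael, of the piRNA pathway, had 45.2% over 29 CpGs at 9.96 FPKM. Tex101 had 83.2% at 0.6 FPKM and Asz1, also of the piRNA pathway, 65.5% at 0.23. Their promoters had a median ratio of 0.69, a range in which the start was low in 96.0% of all members with at least 0.6. Bisulfite levels cannot tell partial methylation of every cell from full methylation of some cells.

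Imprinted genes, where 1 parental copy is methylated at control regions, had a low end in 12 of 27, against 67.6% of all members. Of 23 placed starts 12 were low, with a median of 15.0%. Among these, Phlda2, a placental growth gene, had 1.05% over 81 CpGs at 72.2 FPKM, and Grb10, a growth factor receptor adaptor, 3.40% over 72 CpGs at 16.7 FPKM. Higher starts were found in others. Peg3 had a start of 44.8% over 56 CpGs at 3.88 FPKM, and Nnat 37.7% over 57 CpGs at 6.16. Plagl1 had 62.4% over 38 CpGs at 0.02 FPKM. H19 had both ends at 86.0% and 86.1% with 1.43 FPKM. Igf2r, whose control region lies inside the gene, had a start of 10.6% over 88 CpGs. Mest had 77.6% over 36 CpGs at its annotated start, with 6.35 FPKM. Genes such as Mest have more than 1 promoter, and the outermost start need not be the one in use.

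**Figure D5:**
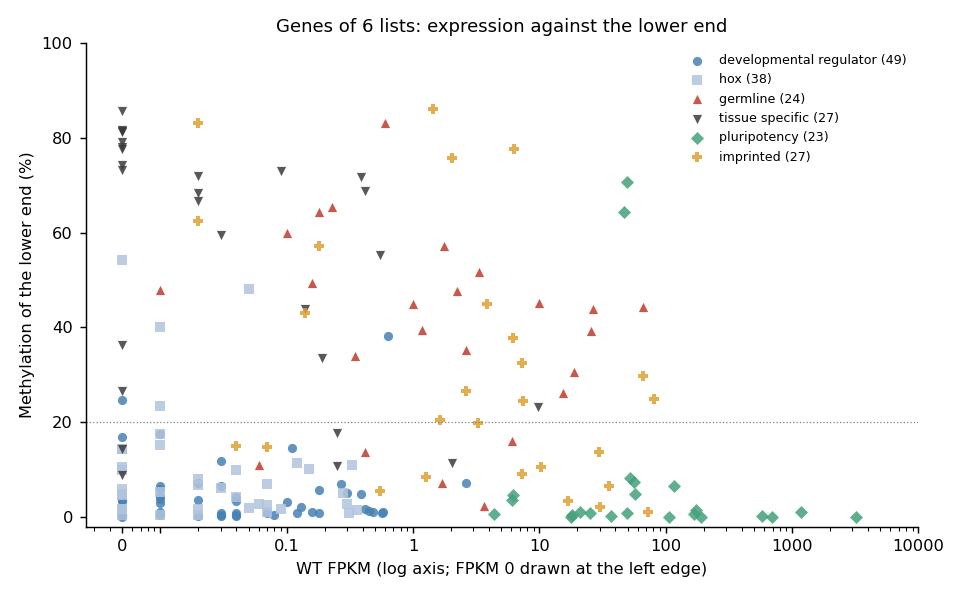
Methylation of the lower end (y axis, %) against WT FPKM (x axis, log scale, genes at 0 drawn at the left edge) for the genes of 6 lists with both ends measured, each point 1 gene, with the dotted line at 20%. Developmental and Hox genes lie low at the left, tissue genes mostly high at the left, pluripotency genes low at the right except Dppa3 and Esrrb, and most germline genes between 20% and 60% over a wide range of FPKM.

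The methylation machinery itself was at 1 FPKM or more in 23 of 25 genes, against 47.4% of all members. Dnmt3b, a de novo methyltransferase, had a start of 6.47% over 81 CpGs and an interior of 74.1% at 66.9 FPKM. Dnmt3a, another de novo enzyme, had 1.00% and 59.5% at 14.7 FPKM. Uhrf1, whose protein recruits DNMT1 to newly copied DNA, had 8.29% at 109 FPKM. Dnmt1 (chr9:20711650-20764332), the maintenance methyltransferase, had an annotated start of 87.5% over 14 CpGs at 59.8 FPKM, and 2 of its 48 tiles of 1 kb were low. Of the Tet genes, Tet1 had ends of 62.0% and 13.1% at 15.1 FPKM, Tet2 of 81.6% and 0.296% at 14.9 FPKM, and Tet3 a start of 13.7% at 0.32 FPKM. Cxxc4 and Tet3 were the members under 1 FPKM.

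Dnmt1 and Dnmt3l belonged to 71 genes with at least 10 FPKM and both ends at 60% or more. Inside the interval, tiles of 1 kb with at least 5 listed CpGs were measured, which 7 of the 71 genes lacked. Of the 64 genes with a measured tile, 37 had at least 1 under 20%. For intervals of 10 to 100 kb this was 61.0% (25 of 41, Wilson 95% interval 45.7% to 74.3%). It was 7.14% of genes at 0 FPKM with both ends high (45 of 630, 5.38% to 9.42%). The median number of measured tiles was 22 and 13 in these groups, and the shares were not adjusted for it. Tpm3, a tropomyosin gene at 216 FPKM, had 5 of 26 tiles low. In intervals under 10 kb it was 2 of 17, where few tiles fit. Among the 27 genes with measured tiles of which none was low were Mapkap1 (14.4 FPKM, interval 83.4% over 1408 CpGs) and Glce (12.0 FPKM, 84.7%). Rprl1, a short RNase P RNA copy with 15.1 FPKM and 87.9% over 7 CpGs, had no measured tile, and its reads cannot be placed with certainty among such copies.

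Some genes listed at 0 FPKM had both ends unmethylated. By the naming rule these were Hist1h2ad, Atp6v0c, Vax2os1, Foxb2, 9230102O04Rik and Hoxc11. Atp6v0c, a subunit of the vesicular proton pump that all cells use, had ends of 1.17% and 0.438% over 58 and 82 CpGs. An entry of 0 can be a failed estimate, and for Atp6v0c the expression is taken only as listed at 0. Foxb2, a forkhead regulator, had an interval of 1.33% over 59 CpGs. Of all genes at 0 FPKM, 26 of 2689 had both ends low.

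Interiors varied widely among expressed genes. Hnrnpf, an RNA-binding protein gene, had an interior of 8.66% over 398 CpGs at 1076 FPKM, and Rarg, a retinoic acid receptor, 9.39% over 318 CpGs at 45.9 FPKM. Trim71, a regulator of development and a let-7 target, had 13.6% over 709 CpGs at 35.3 FPKM. At the other extreme Med6, a Mediator subunit, had 89.0% over 101 CpGs with ends of 85.8% and 3.84% at 59.2 FPKM, and Tubgcp2, of the gamma-tubulin complex, 87.1% over 288 CpGs at 17.4 FPKM. The highest FPKM were those of short RNA genes, Rmrp (207942 FPKM, 0% over 26 CpGs) and Rpph1 (105775 FPKM, 0% over 10 CpGs). Next among genes with the interval and both ends measured was Rprl3, an RNase P RNA copy with 17710 FPKM. It was methylated, with 71.1% over 12 CpGs in 237 bp and overlapping end windows of 71.7% and 69.1%. As for Rprl1, its reads cannot be placed with certainty among such copies. FPKM divides by length, and the part of short length in these values was not tested.

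Members on either side of the edge at 1 FPKM lay close together, and those at the edge of 0 did not. Genes from 0.8 to under 1 FPKM had a median lower end of 6.35% (n = 343) and genes from 1 to 1.25 FPKM 4.65% (n = 330). Their median intervals were 62.8% and 62.2%. Between genes listed at 0 and genes of 0.01 to 0.02 FPKM the median lower end went from 72.6% to 47.1% (n = 1041). Requiring at least 20 listed CpGs in each end left 1033 of the 6632 genes of both classes, mostly CpG-rich ends, and the fall of the lower end between 0 and 10 to 100 FPKM was then 14.8 points instead of 70.85.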

How the data were processed

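Bisulfite (WGBS) and RNA libraries of WT E14Tg2a cells were used, 1 of each. Per the submitters' processing notes, the tools included Trim Galore, Bismark 0.7.9, Bowtie, SAMtools, TopHat2 2.0.2 and Cufflinks 2.0.2, with mm9. The files deposited by the authors hold, per CpG, the methylated fraction and the counts of methylated and all reads, and per gene FPKM rounded to 2 decimals. A CpG is listed only where the WT and the knockout library had at least 5 reads. RNA depth is unknown.

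With Python 3.11.15, numpy 2.4.6, pandas 2.3.3 and scipy 1.17.1, methylation was averaged over CpGs per region (at least 5 CpGs). Regions, classes, Spearman's rho and medians were computed as described, with no p-value, since there is 1 library per assay. A start was placed where the CpGs of the RefSeq promoter (GRCm38.p6), searched within 2000 bp of an end, matched listed positions at 1 end only, with at least 5 CpGs, or 2 CpGs when within 2 bp of the end. The placement and class medians were tested on simulated data.

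Genes were named by a fixed list, by highest FPKM, by the extremes of end and interior methylation, and by each list's highest and lowest FPKM. The extremes were the 6 highest lower ends at 10 FPKM or more (at least 10 CpGs per end), the 6 lowest higher ends at 0 FPKM (at least 20 CpGs per end), and the 4 lowest and 4 highest interiors at 10 FPKM or more (intervals of at least 20 kb, at least 100 interior CpGs). Other genes from the lists, the 7 printed promoters and the single-CpG stretches were chosen after their values were seen. The members and lists were chosen with earlier results of these data known. The expression file gives no strand, and gene models behind it are unknown here, so positions are whole gene intervals and printed strands come from the placement. Alternatives changed the CpG minimum, coverage, weighting, end windows, trim, class floor, threshold and genes included.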

Additional observations from a re-analysis of the deposited data

How the results depend on the processing

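Differences between genes from 10 to 100 FPKM and genes at 0 were recomputed under each alternative. None changed sign. With CpGs of at least 10 reads the interval difference was -21.64 points, the lower end -67.61, the start end -73.91 and the share with a low end 73.99 points higher. Counting FPKM up to 0.1 as silent gave -21.41 (interval), -62.22 (lower end), -5.81 (higher end), -65.68 (start end) and 69.92 (share). Without intervals within 1000 bp of another these were -21.97 (interval), -5.87 (higher end) and 87.16 (share). Intervals of 10 to 100 kb gave -18.50 (interval), -69.68 (lower end) and -5.68 (higher end). At least 10 listed CpGs gave -67.95 (lower end) and 77.0 (share). At least 20 listed CpGs gave -14.76 (lower end), -1.37 (higher end), -30.02 (start end), -7.35 (far end) and 43.98 (share), with far fewer genes, and that is the alternative that moved the values most. End windows of 500 bp on both sides gave -71.74 (lower end), -76.36 (start end) and 80.99 (share), and windows of 2000 bp outside to 1000 bp inside -66.43 and -69.94. Trimming 1000 or 5000 bp gave an interior difference of -7.49 or -3.07. Thresholds of 10% and 30% for a low end gave shares of 81.91 and 82.82. Without olfactory and vomeronasal receptors, an alternative added after the data were seen, the share was 82.16. The other 66 of these values stayed within the interval of the reported one, chromosome 6 left out among them. Medians over 100 FPKM depended on the alternative. There the far end ran from 27.2% to 74.2% (66.0% as reported) and the higher end from 24.5% to 74.5% (67.0%). The interior ran from 57.3% to 71.1% (65.2%). No paired analysis was possible because each assay has 1 WT library. With 1 library per assay, whether these differences between genes recur in other cultures could not be checked. The median share of promoter CpGs listed was 90.5% over placed starts. Low listing at some starts, as in Mael (8 of 24 CpGs), and the median coverage of 8 reads limit single genes.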

Other observations

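Genes on the X chromosome, which were not among the members, had median interval methylation of 77.7% at 0 FPKM (n = 126), 74.9% up to 1 (n = 268), 68.3% from 1 to 10 (n = 188), 57.4% from 10 to 100 (n = 136) and 20.6% over 100 (n = 24). Zinc finger genes with a Zfp symbol, 330 members, had 254 at 1 FPKM or more, against 47.4% of all members. A low end was found in 240 of 272, against 67.6% of all members. Their interior was 75.4% at the median.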
